A study of Homo sapiens with 4 samples.

Results

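Notch is a short-range signalling pathway in which a ligand on one cell engages a receptor on its neighbour. The receptor is then cut by an ADAM protease and by gamma-secretase, and the freed intracellular domain enters the nucleus, joins RBPJ and a Mastermind coactivator and turns on genes of the HES and HEY families. In stratified squamous epithelium the pathway is best known for moving basal cells into differentiation, and in squamous carcinoma it is often disabled. The genes examined here were 3 receptors (NOTCH1, NOTCH2 and NOTCH3), 3 ligands (JAG1, JAG2 and DLL1) and 3 targets (HES1, HEY1 and NRARP). These 9 genes were taken as a given list, were matched by symbol to the Ensembl identifier without its version, and were all found among the 67008 genes of the table.

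RNA-sequencing compared SAS cells (an oral cancer line from a human tongue squamous cell carcinoma) that were infected with virus carrying an shRNA against luciferase (shLuc, named Ctrl) with SAS cells that received an shRNA against STAU1 (shSTAU1) in the same way. STAU1 is a protein that binds double-stranded RNA. Each group had 2 libraries, both groups were labelled WT, and both were grown in DMEM with serum. The comparison rests on a single shRNA, and the labels also carry the name of a mouse fibroblast line (C3H 10T1/2) beside the human organism and the SAS growth protocol. The libraries were made from total RNA with an exome-capture kit, so the reads come from exons reached by its probes. Nothing in the labels says that the libraries came from separate cultures, and the p-values then measure only the spread between these libraries.

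Libraries held 32206655 to 36301574 counts. Levels are given as CPM (counts scaled to a common library size by TMM), and the groups were compared over 14303 genes by the quasi-likelihood test of edgeR, with p-values adjusted by the Benjamini-Hochberg method (an adjusted p under 0.05 is called past the threshold). STAU1 itself had 249 and 251 CPM in Ctrl and 41.6 and 41.5 CPM in shSTAU1. All 8 markers of squamous epithelium in a fixed list had over 10 counts, and their summed level was 7066 to 7477 CPM in Ctrl and 8670 to 11314 CPM in shSTAU1. KRT5, the largest part of this sum (3236 and 3387 CPM in Ctrl, 5488 and 4893 CPM in shSTAU1), and SFN were past the threshold as higher. Of the 8, 7 had a positive log2 fold change and 1, CDH1, a negative value (-0.29). The groups overlapped for CDH1 (878 and 709 CPM in Ctrl, 826 and 474 CPM in shSTAU1). The summed level of 7 fibroblast markers was 17.9 to 22.8 CPM in Ctrl and 10.2 to 11.1 CPM in shSTAU1. Of these COL1A1 was past the threshold as lower and held most of the Ctrl sum (15.7 and 20.2 CPM in Ctrl, 7.84 and 6.25 CPM in shSTAU1). COL1A2 went the other way without passing (1.19 and 1.68 CPM in Ctrl, 2.15 and 3.62 CPM in shSTAU1), and COL3A1, DCN and LUM had at most 10 counts in every library. The endothelial list summed to 15.3 to 18.1 CPM in Ctrl and 8.12 to 17.0 CPM in shSTAU1, with PECAM1 and KDR at most at 10 counts, and the leukocyte list stayed under 1.15 CPM. The part of these marker differences in the results on Notch genes was not tested.

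Of the 9 Notch genes, 7 passed the filter on low counts and were tested, and 1, NOTCH2, was past the threshold. It was lower in shSTAU1. Across the 14303 tested genes 2.6% were past the threshold in either direction and 1.48% as lower. The median log2 fold change was -0.18 over the 7 tested Notch genes and 0.0059 over all tested genes. In 2 of the 7, NOTCH2 and JAG1, the values of the groups did not overlap, a state shared by 56.6% of all tested genes. An unadjusted p under 0.05 was reached by the same 2 genes, and by 24.5% of all tested genes. These counts do not set the Notch genes apart from the rest of the transcriptome.

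**Figure D1:**
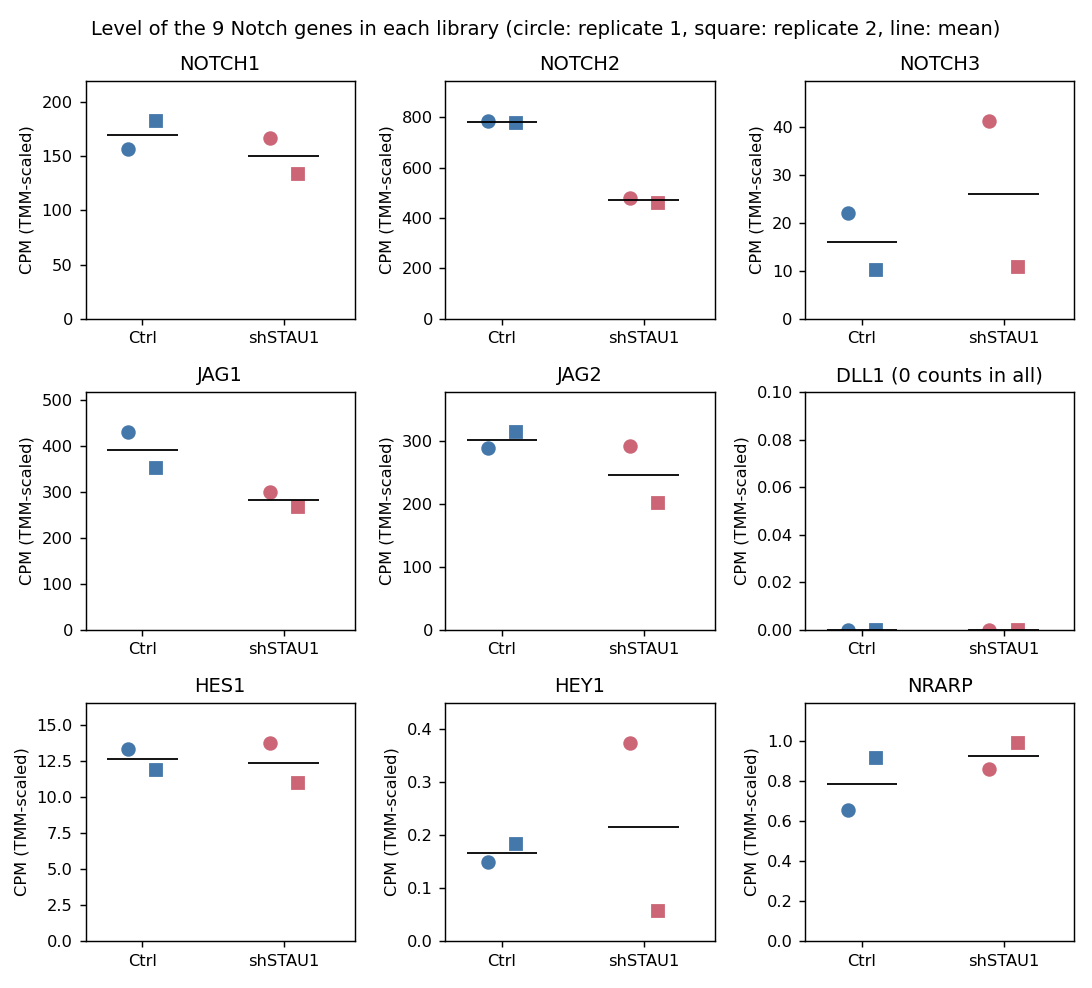
Level of each of the 9 Notch genes in CPM after TMM scaling (vertical axes from 0, own range per gene) in the 2 Ctrl and 2 shSTAU1 libraries, with circles for replicate 1, squares for replicate 2 and a line at each group's mean. NOTCH2 sits at 787 and 778 CPM in Ctrl and at 479 and 461 CPM in shSTAU1, the NOTCH3 values of the groups overlap, and DLL1 is at 0 in every library.

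The receptors were examined first. NOTCH2 (ENSG00000134250, chromosome 1 of GRCh38 from 119911553 to 120069626, minus strand), a receptor shared by many epithelia, drew 26456 and 25480 counts from Ctrl against 16660 and 16278 from shSTAU1. On the CPM scale this was 787 and 778 in Ctrl and 479 and 461 in shSTAU1. Both shSTAU1 libraries lay far under both Ctrl libraries, and the libraries of a group were nearly equal. Means were 782 CPM (SD 6.02, n = 2) for Ctrl and 469.6 CPM (SD 12.7, n = 2) for shSTAU1, so that 60.0% of the Ctrl level was left. This is a log2 fold change of -0.74 with a 95% interval of -1.01 to -0.46 (SE 0.12, edgeR adjusted p = 0.0357), larger than the spread between replicates. In a bulk sample, fewer cells with the transcript and less transcript per cell cannot be told apart.

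NOTCH2 drew many reads and had a moderate fall. By mean CPM over the 4 libraries, which is not divided by length, only 208 tested genes ranked higher. Of the 211 genes past the threshold as lower, 9 had a higher mean CPM than NOTCH2. Its log2 fold change was nearer 0 than the median of these 211 genes (-1.10), and 1639 tested genes (11.5%) had a lower value. The call was lost when every gene with a read was tested (log2 fold change -0.74, adjusted p = 0.0988), without Ctrl replicate 1 (-0.73, adjusted p = 0.490) and without Ctrl replicate 2 (-0.74, adjusted p = 0.169) in edgeR's test. Over the other alternatives with all 4 libraries and the replicate number kept out of the model, the adjusted p ran from 6.9e-05 to 0.0473. The lowest came from DESeq2 and the highest from edgeR with length and GC content of the transcripts corrected for. The log2 fold change was -0.75 without shSTAU1 replicate 1 and -0.72 without shSTAU1 replicate 2, each from a fit with a lone shSTAU1 library.

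The partial copies of NOTCH2 next to the centromere of chromosome 1, the NOTCH2NL genes, are nearly identical to its first exons, so reads there could be split between them. The 4 NOTCH2NL genes in the table held 257 counts over the 4 libraries, which is 0.303% of the 84874 counts of NOTCH2. How the counting program treated such reads is not given in the sources used here, and the share of NOTCH2 reads affected is uncertain. SEC22B, the coding gene that follows NOTCH2 on chromosome 1, had 546 and 573 counts in Ctrl and 535 and 748 counts in shSTAU1, and did not share its fall. The profile over the 4 libraries was compared with that of 467 genes of similar mean log2 CPM, not divided by length. The 3 genes nearest to NOTCH2 were ANKRD36, NBPF26 and KMT2C, at distances of 0.0644, 0.0826 and 0.115 on the centred log2 CPM scale. NBPF26 follows SEC22B on chromosome 1. Like NOTCH2, these genes have near-identical copies elsewhere in the genome, which makes their counts uncertain as well. Their log2 fold changes were -0.72 for ANKRD36, -0.71 for NBPF26 and -0.68 for KMT2C.

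The 3' untranslated regions were read for the 7-base words AAGAGAA and AGAGAAA, which an earlier look at these same counts had picked because genes that hold them tended to be lower in shSTAU1. Of 11884 tested genes with an annotated 3' untranslated region 37.3% held either word, as did 61.1% of the 190 that were past the threshold as lower and 26.8% of the 149 that were past it as higher. These shares come from the fold changes on which the words were picked and are no independent evidence. NOTCH2 held 3 such sites within its last exon (exon 34 of 34 of ENST00000256646). Of the 4428 genes with a 3' untranslated region from 0.5 to 2 times as long as that of NOTCH2, 62.4% held at least 1. The sites are shown with the words in capitals, on the minus strand of GRCh38, because NOTCH2 is the Notch gene past the threshold.
NOTCH2 chr1:119915218-119915236: tccgggAGAGAAAtgaaga
NOTCH2 chr1:119915175-119915193: gtaggaAAGAGAAgatgtt
NOTCH2 chr1:119915146-119915164: taatgcAAGAGAAgcaatt
JAG2 and DLL1 held 1 site each. The site of JAG2 (exon 26 of 26 of ENST00000331782), where both words overlap, is printed for comparison.
JAG2 chr14:105141070-105141089: gtacaaAAGAGAAAaaaaaa
NOTCH1, NOTCH3, JAG1, HES1, HEY1 and NRARP held none. JAG1, without either word, had a log2 fold change of -0.47 that did not pass the threshold (given with the ligands). The part of these words in the fall of NOTCH2 was not tested.

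NOTCH1 (ENSG00000148400, chromosome 9 from 136494433 to 136545786, minus strand) is the receptor most tied to the differentiation of keratinocytes. It had 157 and 183 CPM in Ctrl and 167 and 134 CPM in shSTAU1, and the groups overlapped. Its log2 fold change of -0.18, with a 95% interval of -0.54 to 0.18 (SE 0.16, edgeR adjusted p = 0.514), was within the spread between replicates. An antisense gene overlaps NOTCH1, and without a stated strand setting its reads cannot be separated from those of NOTCH1.

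NOTCH3 (ENSG00000074181, chromosome 19 from 15159038 to 15200981, minus strand) was the least abundant of the 3 measured receptors. It had 22.0 and 10.1 CPM in Ctrl and 41.4 and 10.8 CPM in shSTAU1. Replicate 1 was the higher library in both groups, by a wide margin, and the groups overlapped. Its log2 fold change of 0.70 had a 95% interval from -0.66 to 2.06 (SE 0.59, edgeR adjusted p = 0.494). The log2 fold change was -0.57 without shSTAU1 replicate 1 and 1.36 without shSTAU1 replicate 2. Each of these fits had a lone shSTAU1 library and left the replicate numbers unequal between the groups. Within the same replicate number NOTCH3 was higher in shSTAU1 both times, though by little in replicate 2 (10.1 CPM in Ctrl, 10.8 CPM in shSTAU1).

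Levels of the Notch genes were compared with each other per kb of annotated exon. In Ctrl the summed level of the receptors was 64.6 ± 0.505 CPM per kb (SD, n = 2), and in shSTAU1 it was 45.2 ± 5.34 CPM per kb (SD, n = 2). NOTCH2 made up 72.0% ± 1.12 of this sum in Ctrl and 62.2% ± 5.68 in shSTAU1 (SD, n = 2 each). NOTCH1 made up 25.3% ± 2.53 in Ctrl and 32.0% ± 1.27 in shSTAU1. NOTCH2 thus stayed the leading receptor transcript in every library, by either measure of length. The log2 ratio of NOTCH2 to NOTCH1 within a library, on the CPM scale, was 2.32 and 2.09 in Ctrl and 1.52 and 1.79 in shSTAU1. These groups did not overlap. An exact two-sided permutation test of 2 libraries against 2 cannot give a p under 0.333, so the difference in this ratio could not be tested.

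**Figure D2:**
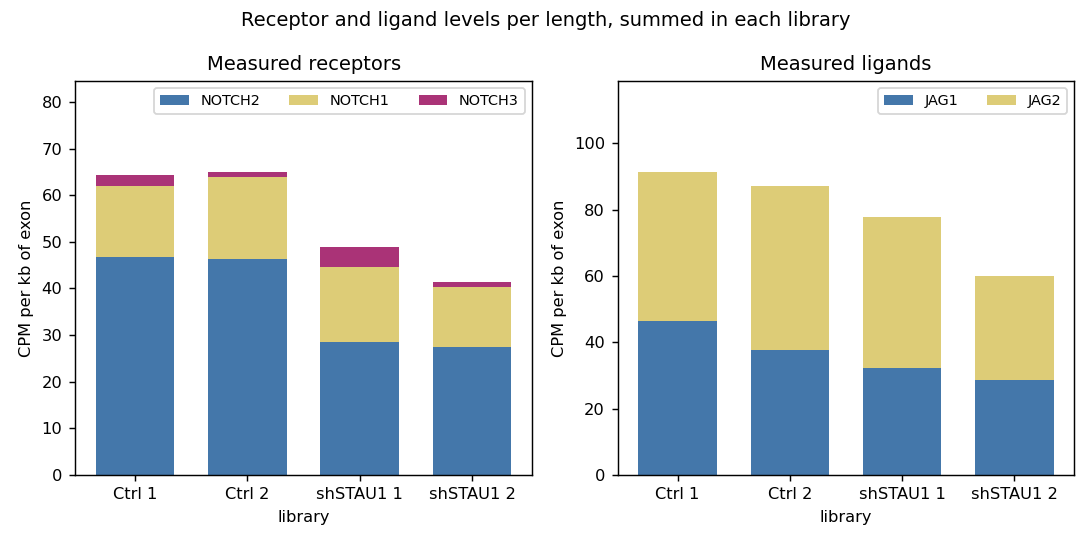
Stacked bars of the level of the measured receptors (left) and ligands (right) in each library, in CPM per kb of annotated exon. The receptor bars are lower in shSTAU1, mainly in the NOTCH2 segment (46.8 and 46.3 in Ctrl, 28.5 and 27.4 in shSTAU1), while both ligands contribute to the ligand bars in every library.

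Next, the ligands were considered. JAG1 (ENSG00000101384, chromosome 20 from 10637684 to 10673999, minus strand), a Serrate-type ligand, had 430.3 and 352 CPM in Ctrl and 299.9 and 266 CPM in shSTAU1. Both shSTAU1 libraries were under both Ctrl libraries, though the Ctrl libraries themselves were unequal. JAG1 had a log2 fold change of -0.47 with a 95% interval of -0.81 to -0.13 (SE 0.15), which did not pass the correction over all genes (adjusted p = 0.109, unadjusted p = 0.0135, edgeR's test). The log2 fold change was -0.55 without shSTAU1 replicate 1, a fit with a lone shSTAU1 library. Over the 4 fits that each left out a library the log2 fold change ran from -0.60 to -0.32, and that without Ctrl replicate 1 was the nearest to 0. An antisense gene also overlaps JAG1.

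JAG2 (ENSG00000184916, chromosome 14 from 105140981 to 105168824, minus strand), the other Serrate-type ligand, had 289 and 315 CPM in Ctrl and 292 and 202 CPM in shSTAU1. The first shSTAU1 library was level with Ctrl and the second was lower, so the groups overlapped. Its log2 fold change was -0.29 with a 95% interval of -0.72 to 0.14 (SE 0.18, edgeR adjusted p = 0.363). It was -0.57 without shSTAU1 replicate 1 and -0.057 without shSTAU1 replicate 2, each from a fit with a lone shSTAU1 library.

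Per kb of exon, JAG2, NOTCH2 and JAG1 were the most abundant of the 9 genes in Ctrl, with means of 47.2, 46.6 and 42.0 CPM per kb. JAG2 and NOTCH2 did not differ beyond their spread, and the order of the 3 depended on the length used. With the longest transcript in place of the union of exons, it was NOTCH2 at 68.7, JAG1 at 65.8 and JAG2 at 51.8 CPM per kb. NOTCH1 followed at 16.4, HES1 at 6.11, NOTCH3 at 1.71, NRARP at 0.444 and HEY1 at 0.0514 CPM per kb of exon, and these 5 did not overlap between neighbours in Ctrl. In shSTAU1 the order of means was JAG2 at 38.6, JAG1 at 30.4 and NOTCH2 at 27.9 CPM per kb. With the longest transcript it was JAG1 at 47.6, JAG2 at 42.3 and NOTCH2 at 41.2 CPM per kb, and the libraries of JAG2 (50.1 and 34.5) lay on both sides of those of NOTCH2 (42.0 and 40.4). JAG1 made up 47.0% ± 5.09 of the summed level of JAG1 and JAG2 in Ctrl and 44.5% ± 4.38 in shSTAU1 (SD, n = 2 each), a difference within the spread between replicates. Probe coverage of the capture kit also differs between genes and was not corrected.

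DLL1 (ENSG00000198719, chromosome 6 from 170282206 to 170306565, minus strand), a Delta-type ligand, had 0 counts in all 4 libraries, which allows up to 3 counts per library (a one-sided 95% limit for counting error only), or 0.0849 to 0.0916 CPM. This value cannot be read as a lack of transcript. FAM120B, a coding gene that overlaps DLL1 on the other strand, had 1 count in Ctrl replicate 1 and 0 in the others. SQSTM1, which most cells express at a high level, had 7 to 16 counts per library, and B2M had 57 to 85. MAML1, a Mastermind coactivator of the Notch complex, had 1 count in Ctrl replicate 1 and 0 in the others, and MGAT4B had 0 in all, as did NOTCH4, the fourth receptor. Values at or near 0 in this table therefore include genes that nearly every cell uses, in both groups alike, and the cause was not tested. FAM120B, SQSTM1, B2M and MGAT4B were picked after their values were seen.

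The targets report on the output of the pathway. HES1 (ENSG00000114315, chromosome 3 from 194136145 to 194138732, plus strand), a transcriptional repressor and the best known Notch target, had 13.3 and 11.9 CPM in Ctrl and 13.7 and 10.9 CPM in shSTAU1. The highest and the lowest of these values both came from shSTAU1. Its log2 fold change was -0.03 (SE 0.21, edgeR adjusted p = 0.941), and its 95% interval of -0.52 to 0.45 includes falls as large as that of JAG1 but not that of NOTCH2. Its sign changed with single libraries left out, from -0.20 without shSTAU1 replicate 1 to 0.11 without shSTAU1 replicate 2.

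The promoters of the targets were inspected for the word TGGGAA, the core of the RBPJ binding word, on either strand, as HES1 is known for a pair of RBPJ sites. In the RefSeq promoter table of GRCh38.p14 (250 bases before to 50 bases after the start of each gene), 24.0% of 35116 promoters held the word and 3.80% held it more than once. DLL1 and HEY1 were not in the table. Of the other 7 Notch genes only HES1 held the word, at 2 places that began 84 and 70 bases before the start and were 14 bases apart. They are shown with the word in capitals, on the plus strand of chr3:194136061-194136090. Both words read in the same direction. A search for the word alone cannot tell whether these 2 places are the known pair of RBPJ sites, and this was not tested.
HES1 promoter: ctgTGGGAAagaaagttTGGGAAgtttcac
A match is a description of the sequence, and no binding was measured in these cells. The gene with this pair of words had a log2 fold change of -0.03.

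NRARP (ENSG00000198435, chromosome 9 from 137300482 to 137302251, minus strand), a feedback inhibitor that is itself a Notch target, was close to the limit of the filter. It had 22 and 30 counts in Ctrl and 30 and 35 counts in shSTAU1, or 0.654 and 0.916 CPM against 0.862 and 0.990 CPM. The groups overlapped. With edgeR the log2 fold change of 0.24 (SE 0.49, adjusted p = 0.799) had a 95% interval from -0.90 to 1.38, so that at this depth neither a clear rise nor a clear fall could be detected.

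HEY1 (ENSG00000164683, chromosome 8 from 79764010 to 79767863, minus strand), a second type of Notch-driven repressor, did not pass the filter and was not tested. It had 5 and 6 counts in Ctrl and 13 and 2 counts in shSTAU1. The shSTAU1 libraries lay on both sides of Ctrl. The exact two-sided 95% Poisson intervals, for counting error only, were 1.62 to 11.7 and 2.20 to 13.1 counts in Ctrl, and 6.92 to 22.2 and 0.242 to 7.22 counts in shSTAU1.

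The wider pathway was described with 61 genes listed by role from textbook knowledge. Of these 53 were tested. In edgeR's quasi-likelihood test 0 were past the threshold as higher and 1, NOTCH2, as lower, where 2.6% of all tested genes passed. In the same test 7 higher and 5 lower had an unadjusted p under 0.05, a state shared by 24.5% of all tested genes. With DESeq2 8 of the 53 passed, of which 5 were higher and 3 lower, where 10.1% of all tested genes passed. The median log2 fold change was 0.04, against 0.0059 over all tested genes. The groups did not overlap in 28 of the 53 (52.8%), against the 56.6% given above for all tested genes. Of the 15 tested genes of the nuclear complex 10 had positive and 5 negative log2 fold changes, and of the 8 that cleave the receptor 5 were positive and 3 negative.

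RBPJ, the DNA-binding protein of the pathway, had 55.3 and 51.3 CPM in Ctrl and 46.1 and 63.4 CPM in shSTAU1, and its log2 fold change was 0.04 (SE 0.18, edgeR adjusted p = 0.916). Its sign was negative with library size in place of TMM (-0.015). ADAM10, the protease that makes the ligand-induced cut, had 439 and 349 CPM in Ctrl and 287 and 204 CPM in shSTAU1. The value of -0.68 on the log2 scale (SE 0.19) missed the threshold (adjusted p = 0.0893). It passed with DESeq2 (adjusted p = 0.00975) and did not pass in edgeR with the length and GC correction (adjusted p = 0.154). With single libraries left out, the log2 fold change of ADAM10 ran from -0.94 to -0.47. ADAM17, a related protease, had 160 and 129 CPM in Ctrl and 182 and 144 CPM in shSTAU1, and these overlapped.

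The other Delta-type ligands were rare. DLL3 had 0.886 to 2.38 CPM and DLL4 0.115 to 0.476 CPM over the 4 libraries. The groups overlapped in DLL3, and in DLL4 they were apart by a small step (0.458 CPM as the lowest Ctrl value, 0.424 CPM as the highest of shSTAU1). Neither passed the threshold in edgeR (adjusted p = 0.680 for DLL3 and 0.551 for DLL4). DTX1, HES5, HEY2 and HEYL, 3 of them HES or HEY family targets, had at most 5 counts in any library. A further 4 genes of the list are named because their adjusted p lay between 0.05 and 0.10 in edgeR's test. LFNG, a glycosyltransferase that tunes which ligand a receptor answers to, had 10.3 and 11.1 CPM in Ctrl and 21.6 and 15.5 CPM in shSTAU1 (adjusted p = 0.0856). NEURL1, a ubiquitin ligase that acts on ligands, had 16.5 and 12.2 CPM in Ctrl and 32.9 and 23.3 CPM in shSTAU1 (adjusted p = 0.0684). APH1A, a subunit of gamma-secretase, stood at 0.57 as a log2 fold change (SE 0.16, adjusted p = 0.0917). HES7, a HES family repressor, had 2.74 and 4.06 CPM in Ctrl and 0.747 and 1.13 CPM in shSTAU1, or -1.85 on the log2 scale (SE 0.41, adjusted p = 0.0596). None of the 4 passed the correction in edgeR with all libraries and the replicate number kept out of the model. All 4 passed with DESeq2 (adjusted p from 0.00332 to 0.0441). With single libraries left out each of the 4 kept its direction.

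**Figure D3:**
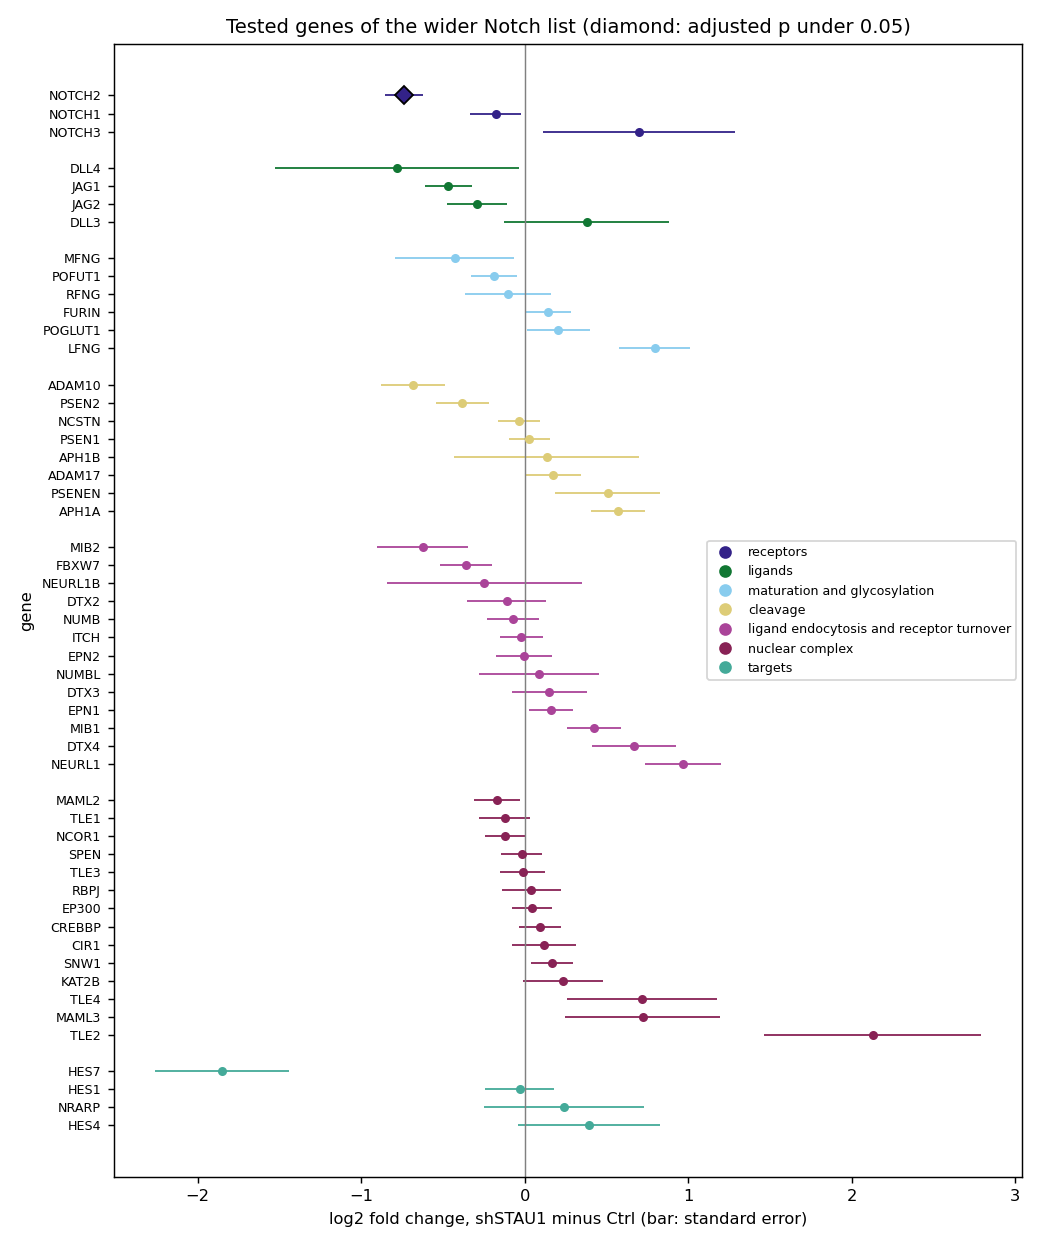
Log2 fold change (shSTAU1 minus Ctrl, horizontal axis) of 52 of the 53 tested genes of the wider Notch list, grouped and coloured by role, with bars for the standard error and a diamond for an adjusted p under 0.05. NOTCH2 at -0.74 carries the single diamond, and genes of each role lie on both sides of 0.

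The 7 tested Notch genes differed in how far their values rested on single libraries. NOTCH2 stayed between -0.75 and -0.72 on the log2 scale whichever library was left out, the narrowest range among them. NOTCH3 ran from -0.57 to 1.36, the widest.

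**Figure D4:**
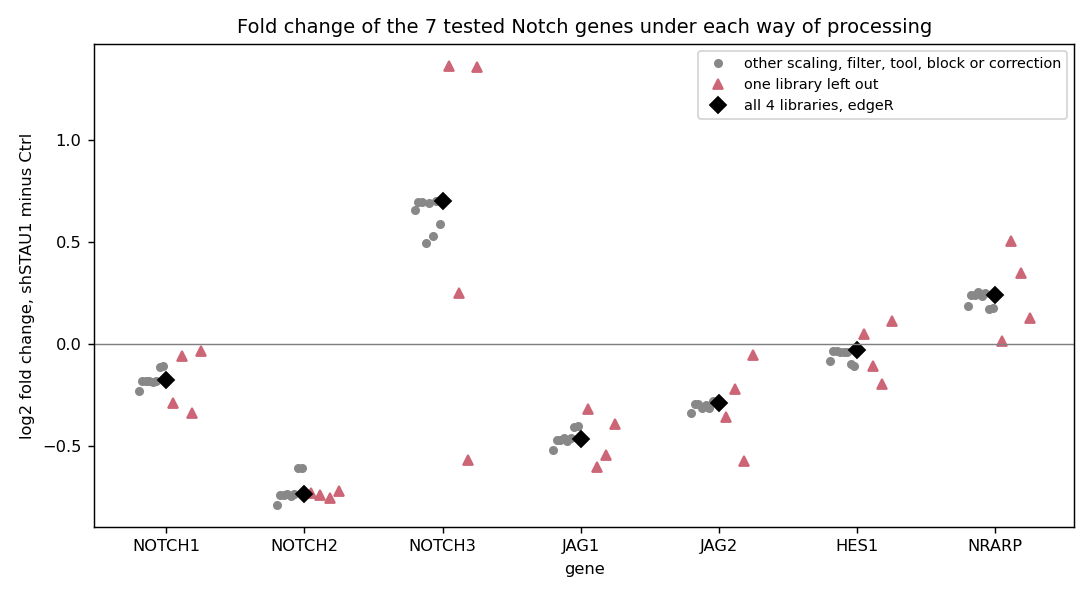
Log2 fold change (shSTAU1 minus Ctrl, vertical axis) of the 7 tested Notch genes with all 4 libraries in edgeR (diamonds), under another scaling, filter, tool, block or correction (grey points) and with a single library left out (triangles). NOTCH1, NOTCH2, JAG1 and JAG2 lie under 0 and NRARP over 0 in every fit, while the triangles of NOTCH3 spread from -0.57 to 1.36.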

How the data were processed

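RNA-sequencing of 2 Ctrl and 2 shSTAU1 libraries was analysed. The authors deposited whole-number read counts per gene without normalization. The submitters' processing notes name hg38 and Partek, while how reads were counted, with or without strand, and on which annotation is not given in the sources used here. Positions and lengths came from GENCODE 29 on GRCh38, which holds 58516 of the 67008 identifiers and 99.9% of the counts. Replicate counts varied beyond sampling noise (chi-square over its degrees of freedom, 23.4 in Ctrl and 56.4 in shSTAU1), so none were merged.

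The groups were compared in edgeR 4.0.16 under R 4.3.3 (filterByExpr, TMM, quasi-likelihood test, Benjamini-Hochberg over 14303 genes). Standard errors were taken as the log2 fold change over the root of the F statistic. Alternatives used DESeq2 1.42.0, limma-voom (limma 3.58.1), other scalings, filters and thresholds, the replicate number as a block, a smooth correction for transcript length and GC content (mgcv 1.9.3) and leaving out each library. The models were tested on simulated counts with 200 changed genes for the comparison of shSTAU1 with Ctrl. Over the 13989 genes that passed its filter, edgeR recovered 98% of the 200 changed genes and made 3 false calls among 199. Recovery at the fold changes seen in the Notch genes was not tested separately. Named genes were the 9 Notch genes, STAU1, pathway genes past the threshold, those with at most 10 counts, a few fixed cleavage, ligand and nuclear genes, and the 3 genes nearest in profile to a Notch gene past the threshold. The Notch genes and the lists were chosen with earlier results of these data known. Promoters came from RefSeq. Some genes of the lists enter the counts but are not reported here by name.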

Additional observations from a re-analysis of the deposited data

How the results depend on the processing

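NOTCH1 kept its direction and stayed short of the threshold under all 14 alternatives, of which the limits of 1.5-fold and of an adjusted p under 0.10 reuse the same fit. NOTCH2, JAG1, JAG2 and NRARP kept their direction in the 12 with a fit of their own. Against 372 genes, 1 Notch gene and 1 gene of the wider pathway past the threshold, DESeq2 gave 1449 genes and 8 of the pathway, with NOTCH2 still the single Notch gene. Testing every gene with a read gave 11 genes and 0 of both (2 Notch genes had an unadjusted p under 0.05 in edgeR). An adjusted p under 0.10 gave 1585 genes and 7 of the pathway, and requiring a 1.5-fold change beside an unadjusted p under 0.05 gave 2098 and 7. Leaving out a library gave 0 to 2780 genes, 0 to 3 Notch genes and 0 to 11 pathway genes, where the lone library of a group is assumed to vary like the other group. Without Ctrl replicate 1 no gene passed in edgeR, though 1502 had an unadjusted p under 0.05, and STAU1, at -2.60 to -2.58 over these fits, had an adjusted p of 0.490.

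No source used here ties the replicate number to a batch. Deviations of same-numbered libraries correlated at 0.233 over all tested genes and 0.587 over the 4787 with a mean log2 CPM over 5. Under the replicate block 4087 genes were called, 4 of them Notch genes (NOTCH2, JAG1 and JAG2 lower, NOTCH3 higher) and 15 of the pathway. JAG1 (adjusted p = 0.000297), JAG2 (0.0219), NOTCH3 (0.00806), ADAM10 (1.43e-08), LFNG, NEURL1, APH1A and HES7 were among those that passed in edgeR with the block. With all 4 libraries and no block these genes did not pass in edgeR. In this fit the standard errors of NOTCH1, JAG1, JAG2 and ADAM10 were nearly equal (0.114, 0.110, 0.112 and 0.111). The p-values of this fit thus rest on a spread shared across genes more than on that of each gene. Without shSTAU1 replicate 1 the standard errors of the same genes were also nearly equal (0.156, 0.153, 0.154 and 0.156), so that fit shares this limit. JAG2 passed though it was level in replicate 1 (289 CPM in Ctrl, 292 CPM in shSTAU1) and lower only in replicate 2 (315 and 202 CPM). With the block and the length and GC correction 3496 passed, with 3 Notch genes, since JAG2 did not pass, and 13 of the pathway.

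Signs changed for RBPJ, which was -0.015 with library size only and ran from -0.22 to 0.26 with a library left out, for HES1 (-0.20 to 0.11), DLL3 (-0.16 to 1.25) and NOTCH3 (-0.57 to 1.36). The cause was not tested. NOTCH2 made up 77.4% of the receptor level in Ctrl with the longest transcript as length. The longer word GTGGGAA was in 6.25% of promoters. Depth limits HEY1 and NRARP to wide intervals. DESeq2 gave no adjusted p for NRARP.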

Other observations

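Genes of keratinocyte differentiation with known ties to Notch were followed as a separate list of 5. None of the 4 that were tested passed the threshold in edgeR's quasi-likelihood test, and 1, IVL, had an unadjusted p under 0.05. CDKN1A, a cell cycle inhibitor, had 23.3 and 15.3 CPM in Ctrl and 24.7 and 11.4 CPM in shSTAU1. KRT10, a keratin of suprabasal layers, had 9.31 and 6.87 CPM in Ctrl and 9.68 and 12.1 CPM in shSTAU1. IVL, a protein of the cornified envelope, had 0.0892 and 0.855 CPM in Ctrl and 2.90 and 2.07 CPM in shSTAU1 (log2 fold change 2.39, standard error 0.78, adjusted p = 0.120). KRT1 had 0 counts in every library. The groups overlapped for CDKN1A and lay apart for KRT10 (adjusted p = 0.319 in edgeR) and IVL.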
